A study of Rattus norvegicus with 12 samples.

Results

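Gpha2, Batf2, Scin, Mcoln3 and Stc1 were examined. They were chosen by their read counts, which stood far lower in cultures given mesenchymal stem cells than in cultures without them, and make up 5 of the 30454 genes in the deposited count table. The libraries, 12 in 3 groups of 4, were sequenced from RNA of cells labelled PC12, a rat line derived from an adrenal chromaffin tumour. All 12 libraries came from cells taken through deprivation and reoxygenation (OGD/R), a cell culture model of ischaemia and reperfusion, so no group of unstressed cells was compared here. The OGDR group had OGD/R alone, the MSCs group had OGD/R and mesenchymal stem cells (MSCs), and the rTMS-MSCs group had both together with repetitive transcranial magnetic stimulation (rTMS) at 10 Hz, all read at 48 h. The labels do not state where the stem cells came from or whether they shared a dish with the cells labelled PC12. Nor do they state whether the 4 libraries of a group were separate cultures. The p-values below therefore measure only the spread between these libraries, which may be technical. In bulk RNA, fewer cells of a type and less RNA per cell cannot be told apart.

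Each of the genes encodes a protein with a separate role. Gpha2 is the alpha subunit of thyrostimulin, a glycoprotein hormone that pairs with the beta subunit Gphb5 and acts on the thyrotropin receptor Tshr, while Stc1 is a secreted stanniocalcin, known as a hypoxia-responsive hormone and as an inhibitor of the PAPP-A proteases that cleave insulin-like growth factor binding proteins. Batf2 is a basic leucine zipper transcription factor that is induced by interferon and works with Jun proteins and Irf1. Scin (scinderin) is a calcium-dependent member of the gelsolin family that severs actin filaments and was first described in chromaffin cells, where it loosens the cortical actin ahead of secretion. Mcoln3 is a cation channel of endosomes and lysosomes, related to Mcoln1 and Mcoln2.

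The 250 bases before the annotated start were available for 4 of the 5 genes, Stc1 being the gene without an entry. They were taken from RefSeq on the GRCr8 assembly, while the counts were made on mRatBN7.2. Those of 3 genes are shown, 5′ to 3′ on the strand of the gene: Gpha2 and Batf2 because they stand near each other and differ most between the groups, and Mcoln3 because it holds a match to the binding motif of AP-1, the family of Batf2 and Jun. Capitals mark matches to the motifs searched. The Gpha2 sequence covers chr1:212955137-212955386 on the plus strand, the Batf2 sequence chr1:212897096-212897345 on the plus strand, and the Mcoln3 sequence chr2:237668756-237669005 on the plus strand.
Gpha2: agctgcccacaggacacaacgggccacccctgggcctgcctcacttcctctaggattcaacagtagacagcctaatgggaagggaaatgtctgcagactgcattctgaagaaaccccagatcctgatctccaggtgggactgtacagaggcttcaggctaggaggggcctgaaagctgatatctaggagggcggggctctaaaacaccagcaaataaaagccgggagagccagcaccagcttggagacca
Batf2: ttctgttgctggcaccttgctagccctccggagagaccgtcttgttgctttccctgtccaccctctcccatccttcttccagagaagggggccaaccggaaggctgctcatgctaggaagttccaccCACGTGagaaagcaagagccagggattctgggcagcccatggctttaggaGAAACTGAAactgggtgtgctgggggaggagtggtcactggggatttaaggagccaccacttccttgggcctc
Mcoln3: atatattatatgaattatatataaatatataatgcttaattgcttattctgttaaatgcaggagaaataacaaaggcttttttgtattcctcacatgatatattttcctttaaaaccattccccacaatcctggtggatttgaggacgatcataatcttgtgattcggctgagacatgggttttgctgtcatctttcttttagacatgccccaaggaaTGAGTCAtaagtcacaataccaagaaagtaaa
The search covered 6 motifs on both strands. The Batf2 sequence held CACGTG, the E-box of the MITF and TFE factors, beginning 123 bases before the start, and the shorter ACGTG, the core of the hypoxia response element, lies inside it on both strands. It also held GAAACTGAA, a match to GAAANNGAA, the core of the interferon-stimulated response element, beginning 73 bases before the start. The Mcoln3 sequence held TGAGTCA, a match to the AP-1 motif TGANTCA, beginning 32 bases before the start. No match was found in the Gpha2 sequence or in that of Scin (chr6:62915288-62915537, minus strand), and ACANNNTGT (glucocorticoid receptor) and TGACGTCA (cyclic AMP response element) matched in none of the 4. Among 33469 rat promoter sequences of the same length, ACGTG was present in 16.6%, GAAANNGAA in 8.12%, TGANTCA in 6.34%, ACANNNTGT in 5.81%, CACGTG in 5.59% and TGACGTCA in 1.59%. The G and C content was 55.6% before Gpha2, 57.6% before Batf2, 51.6% before Scin and 32.4% before Mcoln3.

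Each library held 18246250 to 20471838 counts in genes, and 13692 genes passed a filter on low counts. The libraries MSCs 3 and rTMS-MSCs 3 lay at opposite ends of the second principal component (-30.8 and 32.4), so the values of the 5 genes, and the calls of other named genes between rTMS-MSCs and MSCs, are also given without both. Markers of the labelled cell type were low: none of 14 chromaffin markers reached a mean of 10 CPM (counts scaled to the same library total), and Ddc and Hand2 were among those with no count. Of 12 Schwann cell and glial markers 9 did reach 10 CPM, among them Sox10 at a mean of 397 CPM. These markers do not bear out the PC12 label, and the identity of the cells was not tested. Summed Schwann and glial markers ran from 1059 to 1154 CPM in OGDR, 1269 to 1346 in MSCs and 1277 to 1373 in rTMS-MSCs, against 19.4 to 21.97, 21.8 to 25.1 and 22.7 to 26.3 for chromaffin markers. Summed stromal markers ran from 376 to 401, 411 to 442 and 320 to 404 CPM (15 genes, with Lum at 0), and macrophage markers from 52.2 to 60.1, 51.9 to 67.3 and 64.8 to 78.3 CPM (14 genes, of which Adgre1, Cd163, C1qa and C1qb were at 0 and 12 stayed under 1 CPM in every library). The mitochondrial share of counts was 3.42% ± 0.210 in OGDR, 2.76% ± 0.209 in MSCs and 3.06% ± 0.188 in rTMS-MSCs (SD, n = 4). By edgeR's quasi-likelihood test, 6 of 10 tested Schwann and glial markers, 4 of 10 stromal and 2 of 8 chromaffin markers were called higher in MSCs than in OGDR and none lower, where 11.6% of all tested genes were called higher and 8.63% lower, and neither of the 2 tested macrophage markers was called. The part of these shifts in the levels below was not tested.

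All 5 genes were well counted without stem cells and much lower with them. Every MSCs library lay below every OGDR library for each of the 5, a pattern shown by 11.5% of all tested genes, and 8.63% of tested genes were called lower in MSCs by edgeR's quasi-likelihood test. The genes were picked for this difference, so the MSCs against OGDR values are a description and carry no test. In order of the log2 fold change among the 13692 tested genes, counted from the lowest, Gpha2 ranked 1, Batf2 8, Scin 18, Mcoln3 23 and Stc1 66. Among the 1064 genes called lower that had a symbol and at least 5 CPM in their higher group, the ranks were 1, 2, 4, 7 and 19, with Stc1 the least extreme of the set. All 5 passed the filter on low counts.

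Gpha2, the hormone subunit, had the lowest fold change of all tested genes in MSCs against OGDR. Its level was 17.7, 18.5, 17.9 and 18.1 CPM in OGDR 1 to 4, from 348 to 375 reads per library. In the MSCs libraries it was 0.906, 0.564, 0.271 and 1.17 CPM, from only 5 to 22 reads. The rTMS-MSCs libraries gave 0.299, 0.527, 0.424 and 0.802 CPM, from 6 to 16 reads. The OGDR libraries formed a narrow band far above the other 8, which overlapped each other. Group means were 18.1 ± 0.317, 0.728 ± 0.392 and 0.513 ± 0.214 CPM (SD, n = 4), so 4.03% of the OGDR level was left in MSCs and 2.84% in rTMS-MSCs. The log2 fold change in MSCs against OGDR was -4.62 ± 0.242 (SE), with a 95% interval of -5.12 to -4.11, a 24.5-fold difference. In OGDR the spread between libraries, a coefficient of variation of 1.76%, was under the 5.24% that read counting alone gives, while in MSCs it was 53.9% against 26.7%.

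Batf2, the interferon-induced transcription factor, was 4.10-fold lower in MSCs. OGDR 1 to 4 read 17.6, 14.2, 17.2 and 14.6 CPM. MSCs 1 to 4 read 4.58, 4.82, 2.98 and 3.08 CPM, and rTMS-MSCs 1 to 4 read 4.83, 4.11, 4.29 and 4.71 CPM. The 8 libraries with stem cells lay together and apart from OGDR, with MSCs 3 and MSCs 4 lowest. Means were 15.9 ± 1.72, 3.87 ± 0.972 and 4.49 ± 0.342 CPM, which put MSCs at 24.3% and rTMS-MSCs at 28.2% of OGDR. The log2 fold change in MSCs against OGDR was -2.03 ± 0.158 (95% interval -2.36 to -1.71).

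Scin, the actin-severing protein, gave 7.60, 8.97, 7.71 and 7.79 CPM in OGDR 1 to 4, with OGDR 2 above the 3 others. MSCs 1 to 4 gave 2.62, 2.16, 2.92 and 2.55 CPM. The rTMS-MSCs libraries spread more widely, at 1.79, 2.53, 2.65 and 3.91 CPM, yet the highest of them was still below the lowest OGDR library. Scin averaged 8.02 ± 0.639 CPM in OGDR, 2.56 ± 0.316 in MSCs and 2.72 ± 0.880 in rTMS-MSCs, so that 31.9% and 33.9% of the OGDR level were left. Its log2 fold change in MSCs against OGDR was -1.64 ± 0.198 (95% interval -2.06 to -1.23).

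Mcoln3, the endolysosomal channel, had the widest relative spread of the set among the OGDR libraries, a coefficient of variation of 22.4%. These read 8.23, 9.12, 10.0 and 13.5 CPM, with OGDR 4 highest. MSCs 1 to 4 read 2.97, 1.90, 5.74 and 3.40 CPM, where the high value belongs to MSCs 3, 1 of the 2 libraries that stood apart. The rTMS-MSCs values were closer together, at 3.19, 4.42, 2.97 and 3.31 CPM. Both groups with stem cells had nearly equal means, 3.50 ± 1.62 and 3.47 ± 0.650 CPM, against 10.2 ± 2.28 CPM in OGDR, that is 34.3% and 34.0% of it. The log2 fold change in MSCs against OGDR was -1.55 ± 0.241 (95% interval -2.05 to -1.04).

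Stc1, the secreted stanniocalcin, showed the smallest difference of the set between MSCs and OGDR. OGDR 1 to 4 had 4.48, 4.83, 6.36 and 5.71 CPM. MSCs 1 to 4 had 3.17, 2.36, 2.33 and 1.43 CPM, and rTMS-MSCs 1 to 4 had 0.896, 2.74, 1.06 and 1.65 CPM. MSCs 1 came nearest to the OGDR range without reaching it, and rTMS-MSCs 1 and 3 were the lowest of all 12. Stc1 means were 5.35 ± 0.853, 2.32 ± 0.710 and 1.59 ± 0.834 CPM, which left 43.5% of the OGDR level in MSCs and 29.7% in rTMS-MSCs. The log2 fold change in MSCs against OGDR was -1.20 ± 0.278 (95% interval -1.78 to -0.62).

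With MSCs 3 and rTMS-MSCs 3 both left out, every MSCs against OGDR value stayed below 0. It was then -4.35 for Gpha2, -1.93 for Batf2, -1.71 for Scin, -1.89 for Mcoln3 and -1.20 for Stc1.

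**Figure D1:**
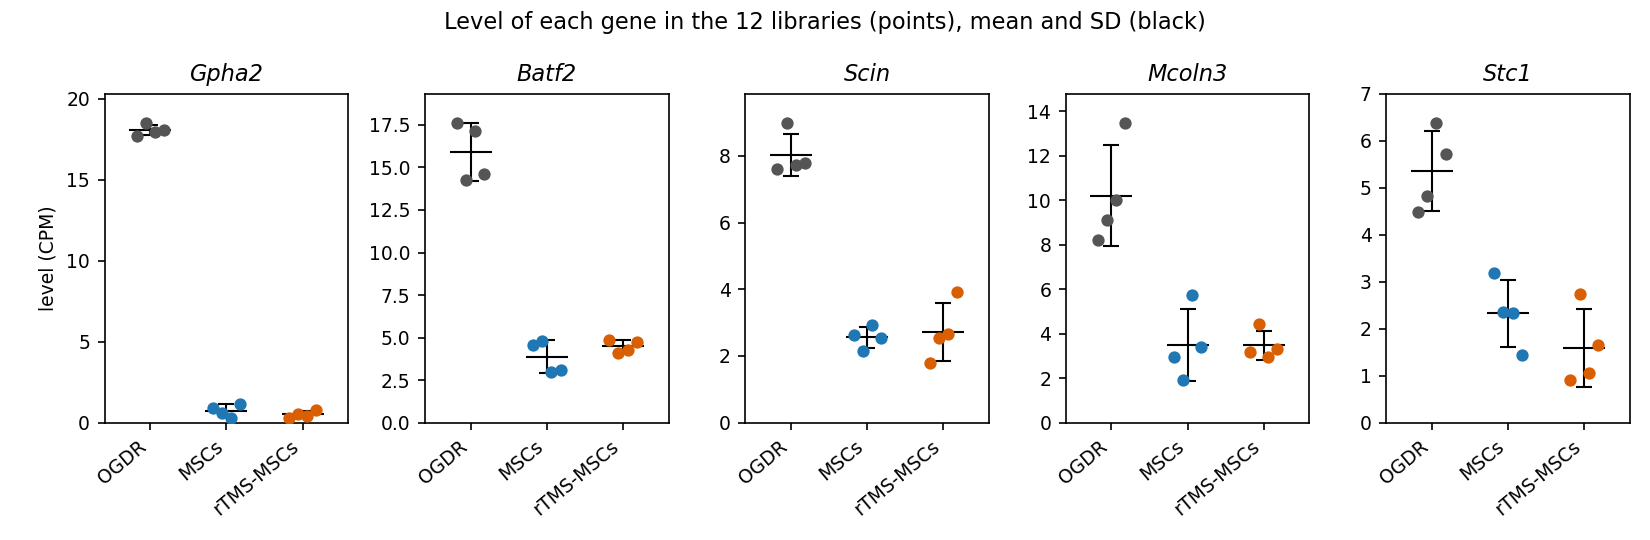
Level of Gpha2, Batf2, Scin, Mcoln3 and Stc1 in CPM (library-scaled counts, vertical axis, from 0, a separate scale for each gene) in the 12 libraries, with group means and SD in black. In each panel the 4 OGDR points lie above all 8 points of the MSCs and rTMS-MSCs groups, for example 17.7 to 18.5 CPM against 0.271 to 1.17 CPM for Gpha2.

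The next comparison asked whether stimulation changed the genes beyond the stem cells. The rTMS-MSCs libraries were not used in choosing them, but the MSCs libraries were, and they enter both comparisons. Genes picked for low MSCs values can seem to rise here, so these p-values cannot settle whether stimulation changed them. None of the 5 passed the test (edgeR quasi-likelihood, Benjamini-Hochberg adjusted over 13692 genes), in which 10.9% of tested genes were called lower and 7.14% higher. The 2 groups overlapped for each gene, while 10.8% of tested genes had every rTMS-MSCs library below every MSCs library. The log2 fold changes in rTMS-MSCs against MSCs were 0.09 ± 0.213 for Scin (95% interval -0.36 to 0.53, adjusted p = 0.805) and -0.01 ± 0.258 for Mcoln3 (-0.55 to 0.53, adjusted p = 0.986). For Batf2 the value was 0.21 ± 0.169 (-0.14 to 0.56, adjusted p = 0.397). Gpha2 had -0.50 ± 0.363 (-1.26 to 0.25, adjusted p = 0.344), an interval that reaches past a 2-fold decrease. Stc1 had -0.55 ± 0.308 (-1.20 to 0.09, adjusted p = 0.212).

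For Stc1 the outcome turned on 1 library: without rTMS-MSCs 2, the highest of its group, the value was -0.95 with an adjusted p of 0.0462, and over all alternatives the adjusted p ran from 0.0462 to 0.530. With MSCs 3 and rTMS-MSCs 3 both left out, none of the 5 passed, and the values were -0.69 for Gpha2, 0.13 for Batf2, 0.17 for Scin, 0.40 for Mcoln3 and -0.41 for Stc1. The number of genes called in this comparison moved with the same libraries, from 2475 in all 12 to 677 without both. It was 1006 without MSCs 3 alone, 1480 without rTMS-MSCs 3 alone and 1313 without MSCs 1.

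Against OGDR, the rTMS-MSCs group was lower for all 5 genes with no overlap of libraries, which 14.8% of tested genes showed, and 16.2% of tested genes were called lower and 16.2% higher. The OGDR libraries are those used to choose the genes, so these values too are given without a test. The log2 fold changes were -5.12 ± 0.255 for Gpha2, -1.82 ± 0.155 for Batf2, -1.56 ± 0.196 for Scin, -1.55 ± 0.241 for Mcoln3 and -1.75 ± 0.290 for Stc1. Without MSCs 3 and rTMS-MSCs 3 they were -5.04, -1.80, -1.54, -1.49 and -1.60 in the same order.

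**Figure D2:**
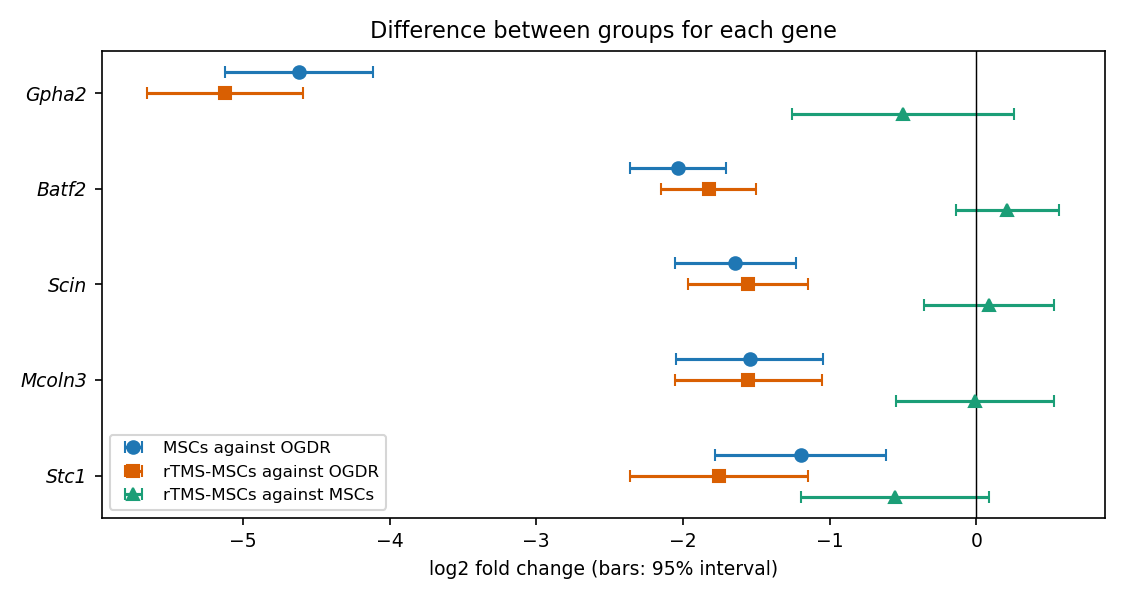
Log2 fold change (horizontal axis) of each gene in MSCs against OGDR, rTMS-MSCs against OGDR and rTMS-MSCs against MSCs, with 95% intervals as bars. The intervals of both comparisons against OGDR lie below 0, from -0.62 for Stc1 at the nearest. The genes were chosen for their fall from OGDR, so these intervals are a description and carry no test. All 5 intervals of rTMS-MSCs against MSCs include 0, but the MSCs libraries too were used in the choice.

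Across the 12 libraries the 5 genes varied together, with Pearson correlations of log2 CPM between 0.779 (Mcoln3 and Stc1) and 0.951 (Gpha2 and Scin). These describe mainly the step between OGDR and the other 8 libraries, for which the genes were chosen. Once each group's mean was subtracted, the correlations ran from -0.763 to 0.371. The lowest was between Batf2 and Mcoln3, in which MSCs 3 was low for Batf2 and high for Mcoln3.

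For each gene the 3 most similar profiles over the 12 libraries were listed by the same correlation. They were taken from 10438 tested genes with a symbol and at least 5 CPM in their highest group. Group means were not subtracted, so these correlations too include the step from OGDR for which the 5 genes were chosen. Closest to Gpha2 were cytoplasmic gamma-actin Actg1 (0.983), the chemokine Ccl7 (0.979) and osteopontin Spp1 (0.978). Ccl7 went from 135 CPM in OGDR to 45.4 in MSCs and 46.1 in rTMS-MSCs. Batf2 was most like the metalloproteinase Mmp11 (0.983), the Wnt pathway transcription factor Lef1 (0.983) and follistatin, Fst (0.982), an activin antagonist. Fst went from 63.5 to 32.8 and 35.1 CPM. Nearest to Scin were Scfd2 (0.971), Fam136a (0.967) and again Spp1 (0.964). Mcoln3 stood next to the autophagy receptor Optn (0.950), Nceh1 (0.950) and the lipoprotein receptor Vldlr (0.948), and Stc1 next to Ttc7b (0.941), Rin1 (0.934) and the AP-1 factor Fosl2 (0.931). Fosl2 went from 84.2 CPM in OGDR to 62.0 in MSCs and 50.4 in rTMS-MSCs, the same order of groups as Stc1.

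Gpha2 and Batf2, the 2 genes of the set that differed most, are near neighbours on chromosome 1, with only Majin between them in the gene order of RefSeq on GRCr8. This was noticed after their values were seen. The block of 5 protein-coding genes to either side was then read from the same fit, in which 10 genes other than Gpha2 and Batf2 were tested. Of these, 5 were called lower in MSCs than in OGDR and 1 higher, where 8.63% of all tested genes were called lower and 11.6% higher. The median log2 fold change was -0.34 against -0.0021 over all tested genes. No test of the block as a whole was made.

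Ppp2r5b, a regulatory subunit of protein phosphatase 2A that directly follows Gpha2, had 159, 156, 145 and 149 CPM in OGDR 1 to 4. It had 80.0, 80.6, 78.1 and 75.2 CPM in MSCs and 77.5, 78.9, 87.1 and 79.0 CPM in rTMS-MSCs. The fall in MSCs was -0.96 ± 0.0576 on the log2 scale (adjusted p = 1.05e-10), with no overlap of libraries. Its profile over the 12 libraries correlated at 0.973 with that of Batf2 and ranked 7 among the profiles closest to it. That correlation includes the step between OGDR and the groups with stem cells, for which Batf2 was chosen. It was not taken within groups. The RefSeq records of Gpha2 and Ppp2r5b overlap, and no source used here states whether counting was by strand, so reads from their shared stretch cannot be told apart.

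Farther along, the autophagy lipid-transfer protein Atg2a fell from 86.3 ± 9.14 to 57.0 ± 3.94 CPM (-0.60 ± 0.0794 on the log2 scale, adjusted p = 9.74e-06). On the other side, the sorting nexin Snx15 fell by 0.54 ± 0.109 (adjusted p = 0.00097) and the small GTPase Arl2 by 0.38 ± 0.0957 (adjusted p = 0.00724). Majin, a meiotic telomere protein between the 2 genes, was barely expressed, at 1.04 ± 0.363 CPM in OGDR and 0.368 ± 0.164 in MSCs. Its log2 fold change of -1.49 ± 0.446 passed (adjusted p = 0.0214), but not without MSCs 1, 2 or 4, without OGDR 1 or 3, or with no filter (adjusted p from 0.0521 to 0.0777). Ehd1, an endocytic recycling protein, rose by 0.22 (adjusted p = 0.0140), a call lost without MSCs 2, OGDR 3 or OGDR 4. At the ends of the block Cdca5 (0.02) and Men1 (0.09) did not pass, nor did Sac3d1 (-0.30, adjusted p = 0.133) and Cdc42bpg (0.71), and Naaladl1 was not tested.

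None of the 10 genes passed the same test between rTMS-MSCs and MSCs, where 10.9% of all tested genes were called lower and 7.14% higher. Against OGDR, rTMS-MSCs again had Ppp2r5b (-0.92), Atg2a (-0.72), Majin (-1.99) and Snx15 (-0.39) lower and Ehd1 (0.21) higher, while Arl2 (-0.14, adjusted p = 0.269) did not pass.

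**Figure D3:**
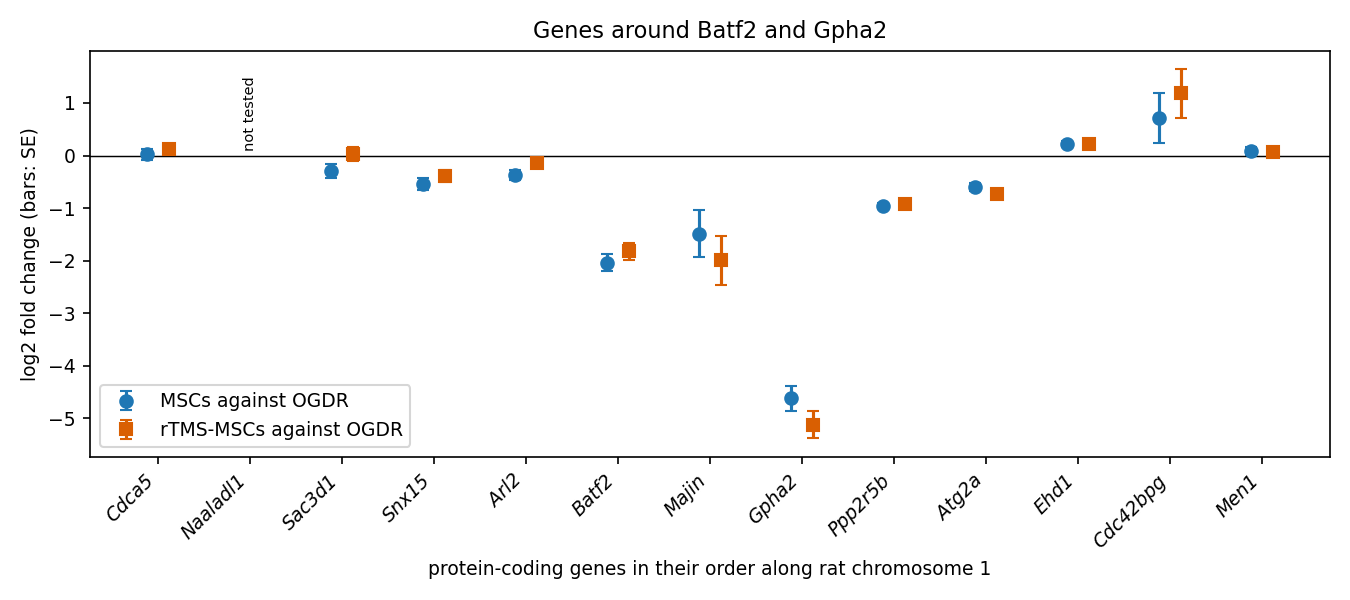
Log2 fold change (vertical axis, SE as bars) of the protein-coding genes around Batf2 and Gpha2, in their order along rat chromosome 1, in MSCs and in rTMS-MSCs against OGDR. Gpha2 (-4.62 and -5.12) and Batf2 (-2.03 and -1.82) stand out beside Majin. Ppp2r5b, Atg2a and, on the other side, Snx15 (-0.54) and Arl2 (-0.38) lie below 0 in MSCs against OGDR, and Cdc42bpg (0.71) lies highest.

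No other hormone subunit of the family could be tested beside Gpha2. Of 11 other glycoprotein hormone and receptor genes, 3 were tested, all of them receptors, and 2 rose in MSCs against OGDR and none fell (11.6% and 8.63% of all tested genes). Tshr, the receptor on which thyrostimulin acts, averaged 2.70 ± 0.963 CPM in OGDR and 5.05 ± 0.999 CPM in MSCs, a rise of 0.90 ± 0.222 on the log2 scale (adjusted p = 0.00561). It was 4.00, 2.07, 2.84 and 1.87 CPM in OGDR 1 to 4 and 6.40, 4.05, 5.14 and 4.62 in MSCs 1 to 4, all but OGDR 1 under 3 and all MSCs libraries above 4. Lgr4, a leucine-rich receptor of the same superfamily that binds R-spondins, rose by 0.56 ± 0.0845 (adjusted p = 4.88e-05), while Lgr6 stood at -0.10. The beta subunit Gphb5 had 5 reads in all 12 libraries together and Cga, the classical alpha subunit, had none. Of the thyrostimulin subunits, Gpha2 alone had enough reads to test. In rTMS-MSCs against MSCs, Lgr4 fell by 0.26 (adjusted p = 0.0346), a call lost without MSCs 3 (adjusted p = 0.130) and under other alternatives, among them without MSCs 3 and rTMS-MSCs 3 (-0.16).

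Stc1 shared its direction with its paralog. Stc2, the second stanniocalcin and likewise an inhibitor of PAPP-A proteases, gave 32.6, 34.8, 39.1 and 47.3 CPM in OGDR and 20.5, 20.2, 19.3 and 23.2 CPM in MSCs. The log2 fold change was -0.88 ± 0.108 (adjusted p = 3.58e-06). Igfbp5, a binding protein of insulin-like growth factors that PAPP-A proteases cleave, fell from 257 ± 17.4 to 122 ± 4.62 CPM (-1.08 ± 0.0669, adjusted p = 1.65e-10), with no overlap of libraries in either gene. These were the 2 of 8 tested genes of the stanniocalcin, PAPP-A and insulin-like growth factor list, Stc1 aside, that were called, both lower (8.63% of all tested genes), and the list's median was -0.01. Igfbp4 stood at -0.14 and Pappa2 at 1.04, neither of which passed. Between rTMS-MSCs and MSCs, Stc2 (-0.14) and Igfbp5 (-0.14) did not pass, whereas 4 others of the list fell and none rose (10.9% and 7.14% of all tested genes), among them the insulin receptor Insr (-0.64, adjusted p = 0.00684), Igf2r (-0.36, adjusted p = 0.00142) and the low-count protease Pappa2 (-2.05, adjusted p = 0.0115). The fourth, the growth factor receptor Igf1r (-0.40, adjusted p = 0.0202), lost its call under 4 of the alternatives. Without MSCs 3 and rTMS-MSCs 3 the values were -0.39 for Insr, -0.27 for Igf2r and -2.58 for Pappa2, which still passed, and -0.29 for Igf1r, which did not.

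No tested partner of Batf2 was called. None of the 6 tested genes among the BATF factors and their partners passed in MSCs against OGDR. None of 6 is near the share over all tested genes, of which 11.6% were called higher and 8.63% lower. The median log2 fold change was 0.05, with Jun at 0.13, Junb at -0.14, Irf1 at 0.01 and Irf8 at -0.59. A single member passed under DESeq2 and without some libraries. The relatives Batf (1 read in all) and Batf3 (73 reads) were too low to test. In rTMS-MSCs against MSCs, Junb alone of the list rose, by 0.37 (adjusted p = 0.00451), where 7.14% of all tested genes were called higher. Without MSCs 3 and rTMS-MSCs 3 its rise was 0.25 (adjusted p = 0.0374).

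Interferon-response genes, the setting in which Batf2 is best known, were called in both directions. Of 21 tested, 4 rose and 5 fell in MSCs against OGDR (11.6% and 8.63% of all tested genes), with a median of -0.06. The chemokine Cxcl11 was 25.4, 25.5, 22.6 and 26.8 CPM in OGDR and 14.4, 14.0, 14.1 and 17.1 CPM in MSCs, a fall of 0.75 ± 0.103 on the log2 scale (adjusted p = 1.44e-05). Cxcl10 fell by 0.43 and Ifit3 by 0.25, while the signal transducer Stat2 rose by 0.50 (adjusted p = 6.43e-08) and the interferon-gamma receptor chains Ifngr1 and Ifngr2 rose by 0.45 and 0.34. The calls of Mx1, Usp18 and Ifnar1 were each lost under some alternatives. In rTMS-MSCs against MSCs, 5 rose and 1 fell (7.14% and 10.9% of all tested genes). B2m, the light chain of class I antigen-presenting molecules, rose by 0.28 (adjusted p = 0.00327), with smaller rises in Oasl (0.22), Ifit3 (0.20), Tap1 (0.19) and Cxcl10 (0.17) and a fall in Rsad2 (-0.39). The list had 1 called gene without MSCs 3 and 2 without MSCs 1. Without MSCs 3 and rTMS-MSCs 3 together, B2m (0.20, adjusted p = 0.0179) still passed, and Oasl, Ifit3, Tap1, Cxcl10 and Rsad2 did not.

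No tested relative of Scin was called lower, and 2 rose. Of 6 other gelsolin family genes tested, these were the calls in MSCs against OGDR, where 11.6% of all tested genes were called higher and 8.63% lower. The median was 0.08, and a count of 0 lower calls among 6 genes is near the share over all genes. Svil (supervillin, a membrane-linked relative) rose from 151 ± 4.91 to 272 ± 7.68 CPM (0.84 ± 0.0581 on the log2 scale, adjusted p = 8.9e-10), and the capping protein Capg from 603 ± 39.5 to 773 ± 57.1 CPM (0.36 ± 0.0768, adjusted p = 0.00189). Gelsolin itself, Gsn, stood at 0.11 and did not pass (adjusted p = 0.167). Svil then fell by 0.29 in rTMS-MSCs against MSCs (adjusted p = 0.00301; -0.24 without MSCs 3 and rTMS-MSCs 3), where Capg (0.21, adjusted p = 0.0576) did not pass. Of 13 tested genes of regulated exocytosis, the process in which Scin was first studied, Vamp2 (0.37) and Syt11 (0.24) rose in MSCs against OGDR, and Snap25 (-0.02) did not pass. That list had 5 called genes under DESeq2, in the 8 compared libraries alone and without rTMS-MSCs 3. The wider list of actin severing, capping and monomer-binding genes had Wdr1 (0.15) higher and Pfn2 (-0.24) lower of 15 tested, with a median of -0.00098, and no call without OGDR 4 or without MSCs 1.

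The lysosomal genes around Mcoln3 had few calls. Its relatives Mcoln1 (48 reads in all) and Mcoln2 (none) were too low to test, so Mcoln3 was the only mucolipin channel that could be compared. Of 14 other tested genes for lysosomal channels and their regulators, 3 were called higher in MSCs against OGDR and none lower (11.6% and 8.63% of all tested genes), with a median of 0.08. None lower of 14 is near the share over all genes. They were the transcription factor Tfeb (0.38, adjusted p = 0.0146) and the 2-pore channels Tpcn2 (0.32, adjusted p = 0.0356) and Tpcn1 (0.16, adjusted p = 0.0486). That count ran from 0, without OGDR 4 or without MSCs 2, to 5, under DESeq2 or without rTMS-MSCs 3. Pikfyve, the kinase that makes the lipid activator of these channels, fell by 0.45 in rTMS-MSCs against MSCs (adjusted p = 0.00688), and by 0.25 without MSCs 3 and rTMS-MSCs 3, where Mcoln3 did not pass in either case.

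**Figure D4:**
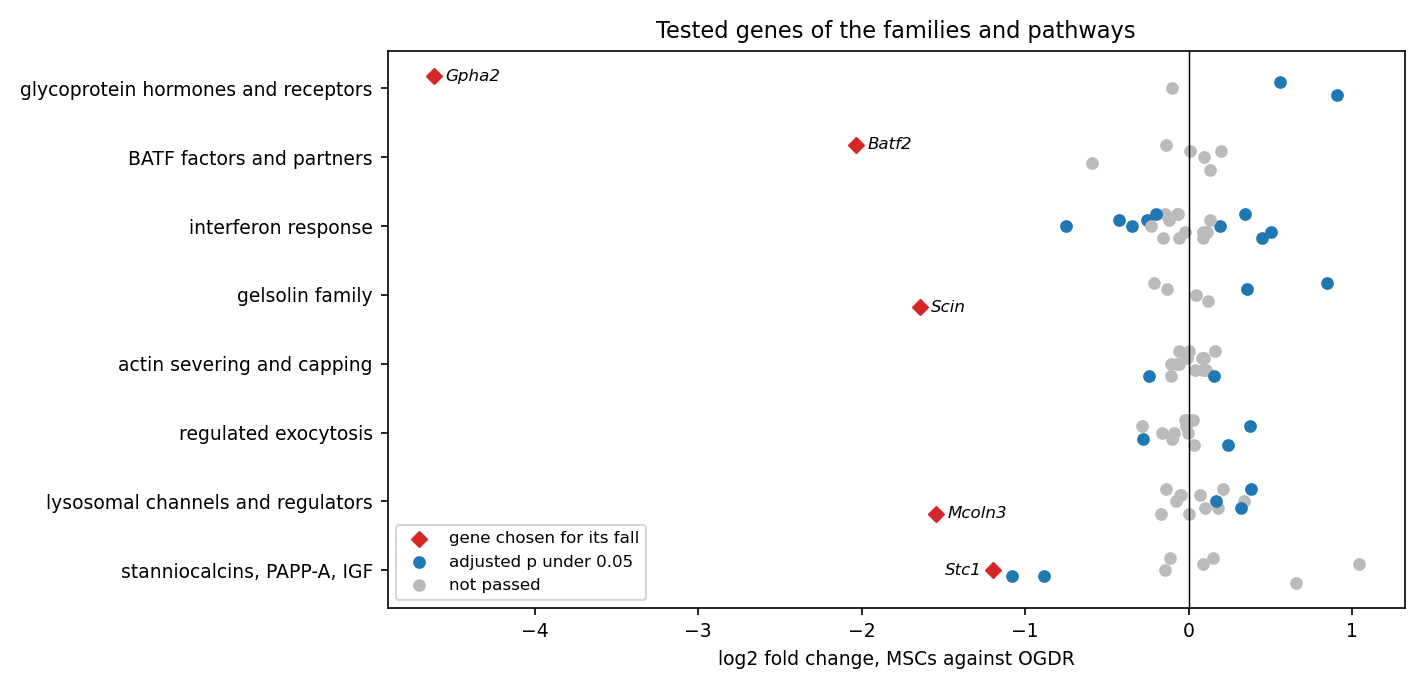
Log2 fold change in MSCs against OGDR (horizontal axis) of every tested gene of the 8 family and pathway lists (rows, shifted vertically only to separate points), with the 5 chosen genes as red diamonds. Gpha2, Batf2, Scin and Mcoln3 lie left of all their relatives, while Stc1 (-1.20) lies close to Igfbp5 (-1.08) and Stc2 (-0.88). The 5 genes were chosen for their fall in this comparison, so their place is a description.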

How the data were processed

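Messenger RNA of cells labelled PC12 was captured with oligo(dT) and copied from random primers, per the labels' protocols. Per the submitters' processing notes, HISAT2 2.1.0 aligned the reads to mRatBN7.2, HTSeq 0.11.2 gave a count per gene and DESeq2 1.40.1 was also used. The deposited table holds raw counts of 30454 genes and 5 summary lines, unused here apart from the share of reads on no feature (51.7% to 52.7% of a library).

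The counts were fitted in R 4.3.3 with edgeR 4.0.16, after filterByExpr by group (minimum count 10, minimum total 15) and TMM scaling. A single quasi-likelihood fit of group means covered all 12 libraries, with 2-sided tests, Benjamini-Hochberg adjustment and a threshold of 0.05. CPM used TMM-scaled library sizes, and log2 CPM a prior count of 2. The procedure was tested on simulated data. No pair of libraries within a group agreed within sampling noise. The members and the gene lists were chosen with earlier results of these data known. Named genes were the 5 genes, their nearest relatives, up to 4 further genes per list with the smallest p and the 3 nearest profiles of each gene. Neighbours, and further genes given to show a list's direction, were named after their values were seen. A few such genes are not reported here. Of 178 list symbols, 176 matched. Alternatives were DESeq2 1.42.0, median ratio scaling, other filters, only the 8 compared libraries, a replicate block and leaving out libraries. The series text mentions 20 samples and a microarray, while 12 sequencing libraries were analysed here.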

Additional observations from a re-analysis of the deposited data

Results flagged for a closer look

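One library stood out by its distance from the rest of its group. The Scin level in OGDR 2 was 8.97 CPM, against 7.60 to 7.79 CPM in the 3 other OGDR libraries, and the gap made up 0.860 of the group's range by Dixon's measure, enough to mark it. Of 15 combinations of gene and group examined, 1 was marked, and chance marks about 1 in 20. OGDR 2 was the highest of a group lying wholly above every MSCs and rTMS-MSCs library. Leaving it out could therefore not produce an overlap.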

How the results depend on the processing

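The differences of the 5 genes from OGDR kept their direction under every alternative run. In MSCs against OGDR they ranged from -4.93 to -4.35 for Gpha2, -2.16 to -1.93 for Batf2, -1.71 to -1.57 for Scin, -1.89 to -1.34 for Mcoln3 and -1.39 to -1.03 for Stc1. In rTMS-MSCs against MSCs the sign was not settled for genes near 0. Mcoln3 was -0.01 and became 0.033 with a replicate block and 0.40 with MSCs 3 and rTMS-MSCs 3 left out, and leaving out 1 library at a time gave -0.21 to 0.34. Scin ranged from -0.14, without rTMS-MSCs 4, to 0.25 in the same way. Stc1 passed only without rTMS-MSCs 2 (-0.95).

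The genes called in rTMS-MSCs against MSCs were 2475, from 1006 to 3196 when 1 library was left out, and 677 without MSCs 3 and rTMS-MSCs 3. Called genes of the lists numbered 22 there (11 to 29 without 1 library, 11 without both) and 23 in MSCs against OGDR (15 to 31). Of called family, pathway and neighbour genes, 26 of 36 kept their call under every alternative in MSCs against OGDR. So did 13 of 27 in rTMS-MSCs against MSCs and 43 of 51 in rTMS-MSCs against OGDR, and none reversed. The causes were not tested.

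The deviations of same-numbered libraries from their group means correlated between -0.205 and 0.128 over the 3 comparisons, and the main fit did not pair them. With the replicate block 2577, 1995 and 4185 genes were called in the 3 comparisons, against 2763, 2475 and 4439 without it. In MSCs against OGDR, each of the 4 MSCs libraries correlated higher with its same-numbered OGDR library than with any other OGDR library. For the rTMS-MSCs libraries this held for none, against MSCs or against OGDR. Whether the numbers mark pairs was not settled. Depth limits Gpha2 most, with as few as 5 reads in a library.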

Other observations

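The protein-coding neighbours of Scin, Mcoln3 and Stc1, 5 to each side in RefSeq order on GRCr8, were also read after values had been seen. The fit and tests were those used around Gpha2 and Batf2. In MSCs against OGDR, 8.63% of all tested genes were called lower and 11.6% higher. Around Scin, 6 neighbours were tested in MSCs against OGDR and 3 fell, the transcription factor Etv1 by 0.44 (adjusted p = 0.00024), the transcriptional regulator Ifrd1 by 0.23 (adjusted p = 0.00427) and Zfp277 by 0.29 (adjusted p = 0.0085), and none rose. Around Mcoln3, 9 were tested. The matricellular protein Ccn1 fell by 0.39 (adjusted p = 0.00544), while Ddah1, which degrades methylated arginines, rose by 0.30 (adjusted p = 0.003) and Ssx2ip by 0.20 (adjusted p = 0.00521). Dnai3, whose record overlaps that of Mcoln3, stood at -0.49 and did not pass (adjusted p = 0.360). The record of LOC120093247, not tested with 66 reads in all, overlaps that of Scin. Around Stc1, 2 were tested, of which the mitochondrial iron importer Slc25a37 fell by 0.34 (adjusted p = 0.00312) and Entpd4 (0.10) did not pass.

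The markers called higher in MSCs than in OGDR included 4 of 10 tested stromal markers, with none lower and a list median of 0.42 on the log2 scale. Pdgfrb went from 42.2 to 58.5 CPM (0.47, adjusted p = 0.000114), the ectonucleotidase Nt5e from 13.2 to 21.97 CPM (0.73, adjusted p = 9.39e-05), periostin Postn from 9.19 to 12.2 CPM (0.41, adjusted p = 0.0318) and the collagen Col3a1 from 0.319 to 0.901 CPM (1.47, adjusted p = 0.0459). Of 10 tested Schwann and glial markers 6 were called higher and none lower, with a median of 0.26. In MSCs against OGDR the glial filament protein Gfap went from 7.75 to 17.7 CPM (1.19 on the log2 scale, adjusted p = 1.24e-07) and Th, tyrosine hydroxylase, from 0.151 to 0.673 CPM (2.13, adjusted p = 0.0195), all with adjusted p-values from edgeR. Of the other 7 tested chromaffin markers, Cyb561 rose (1.84, adjusted p = 6.04e-05) and the rest did not pass, Dbh among them at -0.61. Their part in the levels of the 5 genes was not tested. The calls of these markers were not repeated under the alternatives, and Th and Col3a1 were barely expressed.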
